A study of Mus musculus with 12 samples.

Results

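The interaction of oxygen and a gamma-secretase inhibitor was taken from all 12 Illumina bead arrays of the series, as the hypoxia response with the inhibitor minus the hypoxia response without it. A probe was a member if its detection p-value was under 0.05 on at least 3 of the 12 arrays, which kept 14599 of 25697 probes, for 9879 named genes. The cells came from wild type mouse CCE embryonic stem cells (strain 129/Sv, male). They were grown for 4 days as embryoid bodies, sorted for Flk1, and cultured for 4 more days on collagen type IV. The 4 groups of 3 arrays were normoxia (21% O2), normoxia with 4 µmol/l L-685.458, hypoxia (1.5 to 2% O2), and hypoxia with 4 µmol/l L-685.458. CD31-positive cells were then sorted for RNA, over 50000 per sample. All groups share the line, the Flk1 sort, the medium and the CD31 sort, so the data describe a single embryonic stem cell line in culture. Per the labels the replicates are biological and were plated in triplicate, and what a replicate number shares across groups is not given.

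Cells sense low oxygen through prolyl hydroxylases, which mark the hypoxia-inducible factor (HIF) for degradation while oxygen is present. In low oxygen HIF accumulates and switches on genes of glycolysis, of blood vessel growth and of the vasodilator peptide adrenomedullin. Gamma-secretase is the membrane protease that releases the intracellular domain of Notch receptors, which joins the DNA-binding protein RBPJ on target genes. Notch signalling is known for its role in arterial specification of endothelial cells. L-685.458 blocks the protease, and the interaction asks whether the response to low oxygen is of another size when it is blocked.

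CD31 itself and VE-cadherin were bright on every array, with log2 signals of 11.75 to 12.57 for Pecam1 and 10.12 to 11.05 for Cdh5. Transcripts of the stem cell state remained: Dppa5a gave 10.45 to 14.2 and the pluripotency factor gene Pou5f1 6.35 to 10.07. CD31 is also carried by undifferentiated mouse embryonic stem cells. Whether such cells were left after the Flk1 and CD31 sorts was not tested. In sorted bulk RNA, fewer cells of a type and less RNA per cell cannot be told apart. Each array detected 13085 to 13901 probes, and the dimmest signal detected on an array was 5.08 to 5.24 on the log2 scale.

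The array hypoxia with inhibitor replicate 3 stood apart from the rest of its group, and it enters every interaction value. It had the highest score of the 12 arrays on the first principal component (28.7, 27.4% of the variance). The other replicate 3 arrays lay at 16.7 to 19.4 and the arrays of replicates 1 and 2 at -22.6 to 3.8. Replicates 1 and 2 lay close together in each group. They scored -20.5 and -20.7 in normoxia and -1.3 and -0.3 in hypoxia. With the inhibitor they scored -22.5 and -22.6 in normoxia and 0.3 and 3.8 in hypoxia. The mean log2 signal of 31 genes of the ATF4 and unfolded protein response, a stress programme of the endoplasmic reticulum and of amino acid shortage, was 9.68 on it and 8.41 to 8.75 on the other 11 arrays. For 22 inflammatory genes it was 8.69 against 7.34 to 7.95, and for 12 fibroblast markers 8.99 against 8.1 to 8.48. For 34 endothelial genes it was 10.18, the lowest of the 12 arrays, where the others lay at 10.22 to 10.87. For gene lists and for many of the genes below the value without this array is given as well, and its part in them was otherwise not tested.

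No probe passed the test of the interaction (0 of 14599, 0%, limma with Benjamini-Hochberg adjustment at 0.05), and the adjusted p was 1 for every probe. At an unadjusted p under 0.05 there were 263 probes (1.8%), 142 (0.973%) with a positive and 121 (0.829%) with a negative interaction. With no interaction at any probe, a share of about 0.05 would be expected under this threshold. In a fit with a replicate block the count was 504 (3.45%). A negative value means that the change from normoxia to hypoxia was lower with the inhibitor. The middle 90% of the estimates ran from -0.37 to 0.38 on the log2 scale, and 17 probes exceeded 1 in either direction. The median standard error was 0.24, which gives a 95% interval of 0.53 on either side, or 1.44-fold. An interaction smaller than that could not be told from 0 in this fit for a typical probe with 3 arrays a group. The fit makes no allowance for deviation that same-numbered arrays share. That interval is for a single probe, and adjustment over all probes asked for more. Usp12, at -0.83 with a standard error of 0.17, did not pass. The oxygen effect averaged over both inhibitor states, which is estimated independently of the interaction in this balanced design, was called for 774 probes (5.3%), 415 higher (2.84%) and 359 lower (2.46%) in hypoxia. That count was 401 to 453 when replicate 1 or 2 of normoxia, of normoxia with inhibitor or of hypoxia was left out. In the separate states 148 probes (1.01%) were called without and 125 (0.856%) with the inhibitor. The inhibitor effect averaged over both oxygen levels, a comparison added after the data were seen, was called for 1 probe (0.00685%), that of the Notch target gene Hey1. That call was lost with the replicate block, with unmoderated variances, without hypoxia 1 and without hypoxia with inhibitor 1 (0 probes each), while the count was 7 without normoxia with inhibitor 3 and 28 with array quality weights.

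The replicates agreed on the response to oxygen and not on the interaction. When the interaction was computed from the arrays of 1 replicate number at a time, its values across 14599 probes correlated at 0.14 between replicates 1 and 2, at -0.11 between 1 and 3, and at -0.12 between 2 and 3 (Pearson, a description across probes, which are not independent). For the averaged oxygen effect the same correlations were 0.74, 0.42 and 0.39. The interaction had the same sign in 3 of 3 replicates for 3496 probes (23.9%), and the oxygen effect for 6538 (44.8%). The standard deviation of the interaction over probes was 0.35 and 0.36 in replicates 1 and 2 and 0.52 in replicate 3, whereas that of the oxygen effect was 0.33 to 0.34 in each.

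The hypoxia response as a whole was present in both inhibitor states. The averaged oxygen effect was called for 568 genes (5.75%), 304 higher (3.08%) and 264 lower (2.67%). All 568 changed in the same direction without and with the inhibitor, which selection by the averaged effect favours. The median log2 change of the 304 raised genes was 0.74 without and 0.70 with the inhibitor, and that of the 264 lowered genes was -0.56 and -0.57. Ordered by the sign of the interaction alone, 189 of the 304 raised genes (62.2%) and 115 of the 264 lowered genes (43.6%) had the smaller change with the inhibitor, against 49.1% of the 9311 genes not called. The share among raised genes moved with the arrays left out. It was 41.9% of 430 raised genes in the fit without hypoxia with inhibitor 3, 44.6% of 350 without normoxia with inhibitor 3, and 45.4% of 977 without replicate 3 of every group. It was 63.2% without normoxia 3, 66.6% without hypoxia 3, 50.5% without normoxia with inhibitor 2, and 52% and 53% without hypoxia with inhibitor 1 or 2. Leaving out 1 array makes the groups unequal, and the averaged effect and the interaction are then no longer independent. Selection by the oxygen call can then shift the share by itself, so values with 1 array left out do not isolate the part of that array. The groups stayed equal without replicate 3 of every group. At an unadjusted p under 0.05, 4 raised genes were weaker and 8 stronger with the inhibitor, and 5 lowered genes were weaker and 3 stronger. Together these were 3.52% of the 568, against 148 (1.5%) of all 9879 genes. Both lie below the share of 0.05 expected with no interaction. Genes with the same sign in 3 of 3 replicates numbered 51 weaker and 29 stronger among the raised, and 30 weaker and 34 stronger among the lowered. Together these were 144 of 568 (25.4%), against 2328 of 9879 genes (23.6%).

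**Figure D1:**
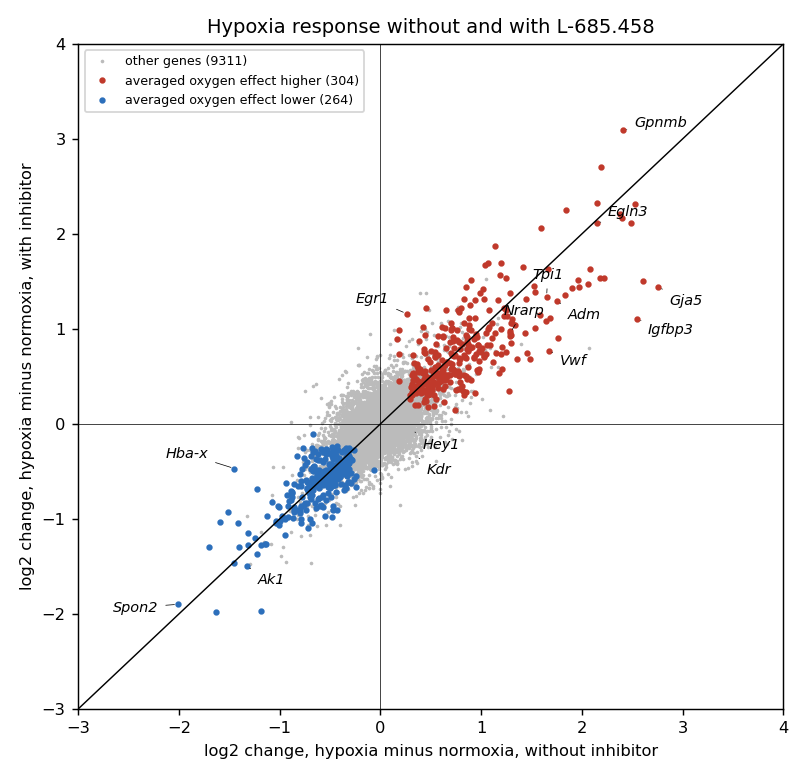
Log2 change from normoxia to hypoxia of 9879 genes without the inhibitor (horizontal axis) and with it (vertical axis), each a difference of 2 means of 3 arrays. Red points are the 304 genes higher and blue points the 264 genes lower in the averaged oxygen effect, grey points the other 9311, and the diagonal marks equal changes. The called points follow the diagonal, with Egln3 close to it and Gja5, Igfbp3 and Vwf below it.

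Of the HIF targets, Egln3, a prolyl hydroxylase that is itself induced by HIF, rose more than 4-fold without and with the inhibitor, and its interaction had a narrow interval. Its log2 signal was 9.68, 9.58 and 9.67 in normoxia and 11.83, 11.88 and 11.66 in hypoxia. With the inhibitor it was 9.61, 9.54 and 9.94 in normoxia and 11.82, 11.83 and 11.76 in hypoxia. All 6 hypoxia values lay above all 6 normoxia values, and the hypoxia groups overlapped. The rise was 2.15 without and 2.11 with the inhibitor (limma adjusted p = 1.62e-05 and 1.99e-05), and the interaction was -0.04 (SE 0.17, 95% interval -0.42 to 0.34).

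The promoters of 3 genes are shown because their hypoxia responses stand at different places in these data: Egln3 with an interaction near 0, Adm with values that differ between replicates, and the arterial gene Gja5 with a negative value in each replicate. The genes were chosen for display after their values were seen. Each sequence runs from 250 bases before to 50 after the start of the gene in RefSeq (GRCm38.p6, strand of the gene). Capitals mark the HIF core motif ACGTG or GCGTG and the RBPJ core motif TGGGAA on either strand, where the motifs may share their bases TG. The windows are chr12:54203825-54204124 (minus strand) for Egln3, chr7:110627407-110627706 (plus strand) for Adm and chr3:97032152-97032451 (plus strand) for Gja5.
Egln3: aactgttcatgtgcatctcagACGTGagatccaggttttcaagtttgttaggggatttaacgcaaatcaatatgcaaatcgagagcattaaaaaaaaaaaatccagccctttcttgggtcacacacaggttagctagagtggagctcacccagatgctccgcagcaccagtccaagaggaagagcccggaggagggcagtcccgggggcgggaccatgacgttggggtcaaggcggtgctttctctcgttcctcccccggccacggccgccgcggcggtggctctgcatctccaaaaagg
Adm: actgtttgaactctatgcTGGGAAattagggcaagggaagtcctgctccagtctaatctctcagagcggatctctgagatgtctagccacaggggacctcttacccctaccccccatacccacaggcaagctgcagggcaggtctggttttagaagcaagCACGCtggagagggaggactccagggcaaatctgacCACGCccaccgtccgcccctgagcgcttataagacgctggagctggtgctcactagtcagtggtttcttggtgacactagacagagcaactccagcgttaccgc
Gja5: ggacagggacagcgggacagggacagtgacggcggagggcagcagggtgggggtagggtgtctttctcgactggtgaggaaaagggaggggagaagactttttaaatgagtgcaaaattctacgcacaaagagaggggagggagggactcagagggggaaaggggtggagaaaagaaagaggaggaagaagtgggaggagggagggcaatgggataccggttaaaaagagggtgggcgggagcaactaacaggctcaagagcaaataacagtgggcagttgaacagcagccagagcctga
The Egln3 window holds 1 HIF core and the Adm window 2 HIF cores and 1 RBPJ core, while neither string of letters occurs in the Gja5 window. Of 8033 tested genes with a promoter in the table, 62.2% held a HIF core and 23% an RBPJ core. The shares were 57.3% and 20.7% of the 246 raised genes that matched, and 60.3% and 21% of the 219 lowered ones, so these motifs were no more frequent in the hypoxia-responsive genes than in all tested genes.

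Across the 35 measured HIF targets outside glycolysis (of 40 on the array), 19 rose in the averaged oxygen effect, where 3.08% of all genes did, and 0 fell, where 2.67% did. Their median change was 0.63 without and 0.50 with the inhibitor. None passed the interaction test or an unadjusted p of 0.05. The interaction was negative for 27 of 35 with a median of -0.11, against 50.5% negative and a median of 0 over all 9879 genes. Without hypoxia with inhibitor 3 the median was -0.03 and 23 of 35 were negative. P4ha1, a collagen prolyl hydroxylase, had the smallest p of the list (interaction -0.51, SE 0.27, unadjusted p = 0.0799), with -0.07, -0.12 and -1.35 in replicates 1, 2 and 3, and -0.28 without hypoxia with inhibitor 3. Lox, the collagen cross-linking lysyl oxidase, lay on the other side (0.49, SE 0.38), with -0.1, 0.3 and 1.28. The growth factor gene Vegfa had a change of 0.63 without and 0.83 with the inhibitor and an interaction of 0.19 (SE 0.39), made of -0.35, -0.24 and 1.16. Without that array it was -0.15 for Vegfa. For these 3 genes replicate 3 held the value farthest from 0.

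Interactions of glycolysis genes were mostly negative by sign, with a median that was smaller without 1 array. Of 20 measured genes (of 21 on the array) 13 rose in the averaged oxygen effect, against 3.08% of all genes, with a median change of 0.89 without and 0.69 with the inhibitor. The interaction was negative for 18 of 20, with a median of -0.27. It was -0.12, -0.10 and -0.59 in replicates 1, 2 and 3, and -0.04 with 12 of 20 negative without hypoxia with inhibitor 3. Without replicate 3 of every group the median was -0.11 and 15 of 20 were negative. No member reached an unadjusted p of 0.05. The triose phosphate isomerase gene Tpi1 gave 13.35, 13.32 and 13.33 in normoxia and 14.97, 15.01 and 14.97 in hypoxia. With the inhibitor Tpi1 gave 13.28, 13.42 and 13.27 in normoxia and 14.93, 14.83 and 14.24 in hypoxia. The last value, from hypoxia with inhibitor 3, was the low one of the 6 hypoxia arrays. Its rise passed the test in both states (1.65 and 1.34, limma adjusted p = 0.000699 and 0.00322), and its interaction of -0.30 (SE 0.22, 95% interval -0.79 to 0.18) became -0.09 without that array.

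Leaving out the same array moved 3 further glycolysis genes. Pfkl, the liver-type phosphofructokinase, had 11.99 and 12.08 on hypoxia with inhibitor 1 and 2 and 10.48 on replicate 3, while the hypoxia arrays without inhibitor gave 12.03 to 12.06. The interaction of Pfkl was -0.45 (SE 0.46) over 12 arrays and 0.07 without that array. Ldha, lactate dehydrogenase A, had 14.01, 14.01 and 13.06 against 14.03 to 14.09, and its interaction went from -0.36 (SE 0.32) to -0.04. The brightest probe of the lactate exporter gene Slc16a3 was not well above background on any normoxia array. Its rise was at least 4.15-fold without and at least 3.02-fold with the inhibitor. A second, dimmer probe of Slc16a3, detected on 7 of the 12 arrays, had an averaged oxygen effect of 0. The glucose transporter gene Slc2a1 had changes of 0.30 and 0.36, and its interaction was 0.07 (SE 0.20, 95% interval -0.36 to 0.49). The other members named by the smallest p were Pgam1 (-0.39), Pfkfb3 (-0.57), Hk1 (-0.53) and Pgk1 (-0.35), with unadjusted p of 0.129 to 0.159. Without hypoxia with inhibitor 3 both Pgam1 and Hk1 gave -0.19.

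**Figure D2:**
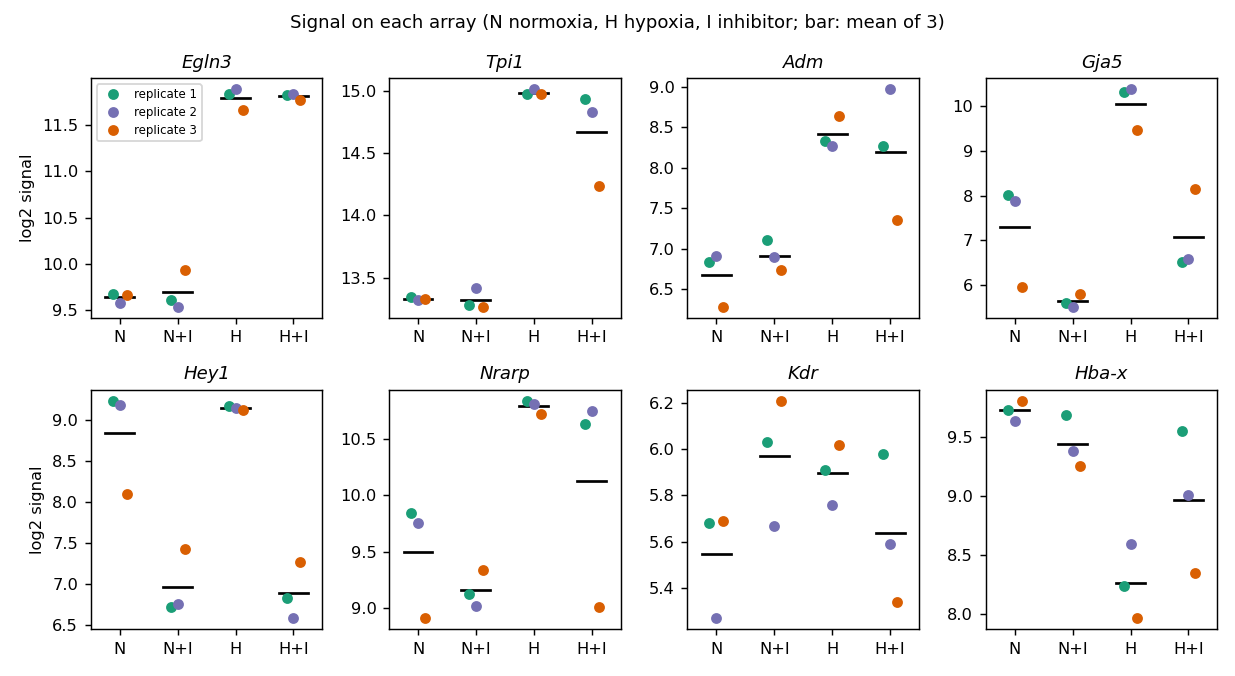
Log2 signal of 8 genes on each of the 12 arrays; points are arrays coloured by replicate number, bars are means of 3, and N, H and I stand for normoxia, hypoxia and inhibitor. Each panel has its own vertical axis. Egln3 has nearly equal hypoxia levels in both states, Gja5 and Hey1 are lower with the inhibitor, and replicate 3 of hypoxia with inhibitor is the low point of that group for Tpi1, Adm and Nrarp.

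The 12 largest rises in the averaged oxygen effect were those of Gpnmb, Cryaa, AA467197, Slc16a3, Depp1, Pygl, Trf, Egln3, Gja5, Slc32a1, Dusp26 and Nrip3. Gpnmb, which encodes a membrane glycoprotein, had the largest, with changes of 2.41 without and 3.09 with the inhibitor (limma adjusted p = 0.0185 and 0.00416). Its interaction of 0.67 (SE 0.56) was 0, -0.07 and 2.08 in replicates 1, 2 and 3, and 0.23 without hypoxia with inhibitor 3. Cryaa, a lens crystallin gene, behaved the same way, with 0.26, -0.35 and 1.61 around an interaction of 0.51 (SE 0.40), and 0.28 without that array. For Trf, the iron carrier transferrin, the changes were 2.15 and 2.33 and the interaction 0.18 (SE 0.42), with values of 0.14, 0.54 and -0.13. Pygl, liver glycogen phosphorylase, had changes of 2.40 and 2.17 and AA467197 2.53 and 2.31. Both had interactions within 0.25 of 0 (-0.23 for Pygl and -0.21 for AA467197), negative in 3 of 3 replicates and 0.06 and 0.09 without that array. Depp1 gave 0.58, 0.65 and -1.74 in replicates 1, 2 and 3, so that an interaction of -0.17 (SE 0.76) stood for values of opposite sign, and was -0.42 without that array. Nrip3 gave -1.49, -0.95 and 0.40.

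Slc32a1, the vesicular transporter of GABA and glycine, and Dusp26, a phosphatase gene, were not well above background on any normoxia array. In hypoxia Slc32a1 was at least 3.90-fold higher without and at least 1.76-fold higher with the inhibitor, and its hypoxia signals were 8.02, 7.99 and 5.35 without against 6.83, 6.51 and 4.59 with it. The hypoxia groups overlapped, as 5.35 without the inhibitor lay below 6.83 and 6.51 with it. Within each replicate number the value with the inhibitor was the lower. Dusp26 rose at least 2.98-fold and at least 3.89-fold, with hypoxia signals of 7.01, 6.77 and 6.42 without and 7.1, 7.29 and 7 with the inhibitor. As the normoxia signals are bounds, the interactions of these genes are differences between bounds.

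The 12 largest falls differed between the states by less than 1 on the log2 scale in each gene. Ak1, an adenylate kinase, gave 9.53, 9.39 and 9.29 in normoxia and 8.11, 8.17 and 7.96 in hypoxia, and with the inhibitor 9.55, 9.54 and 9.11 and 8.08, 8.04 and 7.59. The normoxia and hypoxia values did not overlap in either state. Its falls of 1.33 and 1.50 passed the test in both (limma adjusted p = 0.0041 and 0.0029), with an interaction of -0.17 (SE 0.23, 95% interval -0.68 to 0.33). Gucy1b1, a subunit of soluble guanylate cyclase, fell by 1.32 and 1.15 with an interaction of 0.17 (SE 0.23). Mreg fell by 1.23 and 1.37 (interaction -0.14, SE 0.24), Whrn by 1.32 and 1.28 (0.04, SE 0.29) and Mdga2 by 1.40 and 1.30 (0.09, SE 0.30). Cd55, a complement regulator, fell by 1.45 and 1.47, and its interaction of -0.02 was made of 0.19, 0.56 and -0.81. The other 6 (Spon2, Rab3b, Hapln1, Zscan4c, Hpgd and Tbx2) passed in neither state alone and had interactions of -0.78 (Hapln1) to 0.56 (Hpgd). The changes of Hpgd, which encodes a prostaglandin-degrading enzyme, were -1.59 and -1.03. Hapln1, a matrix link protein gene, had changes of -1.19 and -1.97, with -0.09 and 0.34 in replicates 1 and 2 and -2.58 in replicate 3, and an interaction of -0.24 without hypoxia with inhibitor 3. Zscan4c belongs to a family of near-identical copies, between which a probe may not tell.

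**Figure D3:**
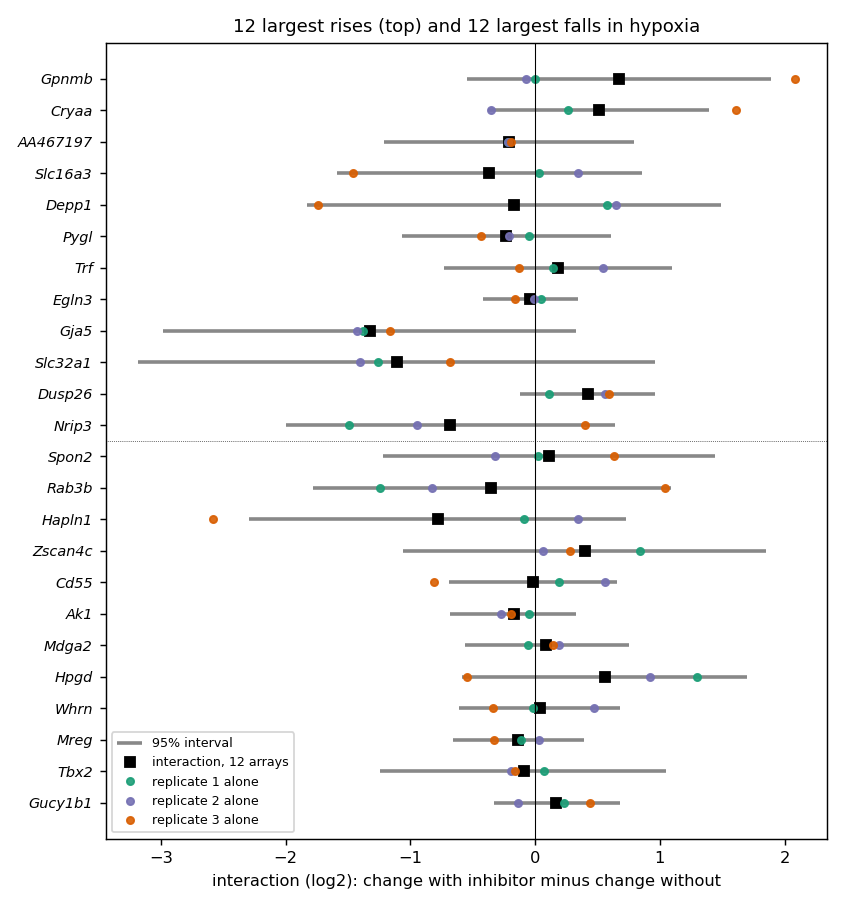
Interaction (log2, horizontal axis) of the 12 largest rises and 12 largest falls in the averaged oxygen effect. Black squares are estimates from 12 arrays with their 95% interval as a grey line, and coloured points are the values of each replicate number alone. All 24 intervals include 0; the 3 replicate points lie together for Egln3, Gja5 and Ak1 and apart for Gpnmb, Depp1 and Hapln1.

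Adrenomedullin did not give a settled interaction. Adm had log2 signals of 6.83, 6.91 and 6.28 in normoxia and 8.33, 8.27 and 8.64 in hypoxia. With the inhibitor it had 7.10, 6.89 and 6.74 in normoxia and 8.27, 8.97 and 7.35 in hypoxia. Every hypoxia value lay above every normoxia value, and the hypoxia values with the inhibitor spanned both the highest and the lowest of the 6. The rise passed the test without the inhibitor (1.75, limma adjusted p = 0.0297) and not with it (1.29, adjusted p = 0.105). The difference itself did not pass: the interaction of Adm was -0.46 (SE 0.46, 95% interval -1.46 to 0.55), with -0.34, 0.72 and -1.75 in replicates 1, 2 and 3, and -0.03 without hypoxia with inhibitor 3.

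The receptor of adrenomedullin is Calcrl joined to Ramp2 or Ramp3. The interaction was -0.35 (SE 0.31) for Calcrl, -0.19 (SE 0.30) for Ramp2 and -0.26 (SE 0.67) for Ramp3, whose replicate values of 0.63, 0.13 and -1.53 again parted replicate 3. Without hypoxia with inhibitor 3 Calcrl gave -0.16 and Ramp3 0.40. Of 13 measured genes of adrenomedullin signalling (of 17 on the array), which include receptor parts, the cyclic AMP pathway and peptidases, 3 rose in the averaged oxygen effect, against 3.08% of all genes, and none passed the interaction test. The interaction was negative for 12 of 13 with a median of -0.26, and -0.04 with 10 of 13 negative without hypoxia with inhibitor 3. The smallest p belonged to genes downstream or at the surface: Prkar2b, a regulatory subunit of protein kinase A (-0.46, unadjusted p = 0.201, and -0.14 without that array), its catalytic subunit gene Prkaca (-0.20), the peptidase gene Mme (detected on no hypoxia array without the inhibitor, so no value is read) and the transcription factor gene Creb1 (0.34).

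No Notch target had a called interaction. Hey1, a transcriptional repressor induced by Notch, had 9.24, 9.19 and 8.10 in normoxia and 9.18, 9.15 and 9.13 in hypoxia. With the inhibitor it had 6.72, 6.76 and 7.43 in normoxia and 6.84, 6.59 and 7.27 in hypoxia. The 6 arrays with the inhibitor lay below the 6 without it, and the averaged inhibitor effect was -2.06 (limma adjusted p = 0.00806). Oxygen moved Hey1 by 0.31 without and -0.07 with the inhibitor, neither past the test, and the interaction was -0.38 (SE 0.42, 95% interval -1.29 to 0.54).

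Nrarp, which Notch induces and which restrains Notch in turn, was among the genes raised by low oxygen (averaged effect 1.13, SE 0.27, limma adjusted p = 0.0358). Its hypoxia signals were 10.84, 10.81 and 10.72 without and 10.63, 10.75 and 9.01 with the inhibitor, and its normoxia signals 9.84, 9.75 and 8.91 without and 9.12, 9.02 and 9.34 with it. On replicates 1 and 2 the inhibitor values in hypoxia nearly matched those without it, and on replicate 3 the rise was missing. The interaction of Nrarp was therefore -0.33 (SE 0.55) from values of 0.50, 0.66 and -2.14, and 0.23 without hypoxia with inhibitor 3. The interactions were -0.30 (SE 0.36) for Hes1 and 0.24 (SE 0.29) for Hey2, whose probe was detected on 1 or 2 arrays of each group. Without that array they were -0.65 for Hes1 and 0.47 for Hey2. Over 15 measured Notch targets (of 19 on the array) the median interaction was -0.04 and 8 were negative, and 0.05 with 6 negative without that array.

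Receptors, ligands and their modifiers had small estimates. The interaction was -0.25 (SE 0.16, 95% interval -0.59 to 0.09) for Notch1 and 0 (SE 0.29) for Notch4, where replicates 1 and 2 gave 0.44 and 0.47 and replicate 3 -0.91. It was 0.54 (SE 0.46) for the ligand gene Jag1, 0.18 (SE 0.37) for Jag2 and 0.39 (unadjusted p = 0.0733) for Numbl, a relative of the Notch antagonist Numb. Without hypoxia with inhibitor 3 Notch4 gave 0.28, Jag1 0.30, Jag2 0.29 and Numbl 0.25. The endothelial ligand gene Dll4 was detected on 2 of 3 arrays in normoxia and in hypoxia and on none with the inhibitor, so no interaction is read from it. Over 24 measured genes of this list (of 27 on the array) the median was 0.06. For 7 measured genes of gamma-secretase itself (of 9 on the array), among them Ncstn (0.15), Psen2 (0.07) and Aph1a (-0.06), the median was -0.03. It was -0.01 over 27 genes whose proteins are other substrates of the protease.

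Among arterial genes the gap junction gene Gja5 (connexin 40) had a smaller rise with the inhibitor in each replicate, which did not pass the test. Its log2 signal was 8.02, 7.88 and 5.97 in normoxia and 10.3, 10.37 and 9.47 in hypoxia. With the inhibitor it was 5.61, 5.52 and 5.80 in normoxia and 6.52, 6.59 and 8.14 in hypoxia. Normoxia and hypoxia did not overlap in either state, and all 3 hypoxia values with the inhibitor lay below all 3 without it. Low oxygen changed Gja5 by 2.76 without the inhibitor (6.78-fold, limma adjusted p = 0.0364) and by 1.44 with it (2.71-fold, adjusted p = 0.306). The interaction was -1.32 (SE 0.76, 95% interval -2.98 to 0.33, unadjusted p = 0.107), with -1.38, -1.43 and -1.16 in replicates 1, 2 and 3. In replicate 3 the change was larger in both states (3.5 and 2.34) than in replicate 1 (2.29 and 0.90) or 2 (2.50 and 1.07), so the differences lie closer together than the standard error of the unpaired fit. The other 2 kept probes of the gene, detected on 3 and 6 of the 12 arrays, gave -0.55 (SE 0.19) and -1.62 (SE 0.59). They were under detection on the remaining arrays, so these values are given without being taken as support. With any 1 array left out the interaction of Gja5 ran from -1.85 (without hypoxia with inhibitor 3) to -0.66 (without normoxia 3). In the fit without replicate 3 of every group the interaction of Gja5 was -1.40 (SE 0.14). It had the smallest p of 14599 probes there and did not pass either (limma adjusted p = 0.187). Replicates 1 and 2 had nearly the same signal in each group, so that standard error reflects the closeness of 2 arrays a group.

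Other arterial genes had wide intervals around negative or small values. Igfbp3, an insulin-like growth factor binding protein gene that is also a HIF target, had hypoxia signals of 10.38, 10.35 and 8.56 without and 8.84, 8.91 and 7.06 with the inhibitor. Its normoxia signals were 7.73, 7.79 and 6.14 without and 7.21, 7.54 and 6.77 with it. The hypoxia groups overlapped, as 8.56 without the inhibitor lay below 8.84 and 8.91 with it. Within each replicate number the hypoxia value with the inhibitor was the lower, and replicate 3 was the lowest of each group. The interaction was -1.45 (SE 0.87, 95% interval -3.35 to 0.45), and -0.85 without hypoxia with inhibitor 3. The lymphangiogenic factor gene Vegfc had changes of 0.81 and -0.17 and an interaction of -0.98 (SE 0.56, unadjusted p = 0.105), negative in 3 of 3 replicates. The chemokine receptor gene Cxcr4 was detected on 2 of 3 arrays in normoxia and in hypoxia, and with the inhibitor on none in normoxia and 1 in hypoxia, so no interaction is read from it. Sema3g, detected on no array of normoxia with the inhibitor, is left unread as well. The interaction was 0.14 (SE 0.23) for Efnb2, -0.10 (SE 0.40) for Gja4 (connexin 37) and 0.06 (SE 0.46) for Sox17, and without that array -0.45 for Gja4 and -0.11 for Sox17. Over 29 measured arterial genes (of 32 on the array) 19 interactions were negative and the median was -0.11, also without hypoxia with inhibitor 3. Without replicate 3 of every group that median was 0.03, with 14 negative. At replicate level the medians were -0.04, -0.02 and -0.35.

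Genes of endothelial identity and of veins held several members with larger single values. Vwf, which encodes the clotting protein von Willebrand factor, had 8.28, 7.96 and 7.18 in normoxia and 9.21, 9.12 and 10.1 in hypoxia. With the inhibitor Vwf had 7.86, 7.89 and 7.46 in normoxia and 8.52, 8.32 and 8.67 in hypoxia, so the hypoxia values did not overlap between the states. It rose without the inhibitor (1.67, limma adjusted p = 0.0255) and had a change of 0.77 with it (adjusted p = 0.322). The interaction was -0.90 (SE 0.42, 95% interval -1.82 to 0.02, unadjusted p = 0.0544), with -0.27, -0.73 and -1.71 in the replicates. Kdr, which encodes the VEGF receptor Flk1 of the earlier sort, changed by 0.35 without and -0.34 with the inhibitor on a dim probe (5.27 to 6.21 over 12 arrays). Its interaction was -0.69 (SE 0.27, unadjusted p = 0.0274), negative in each replicate at -0.28, -0.58 and -1.20.

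Etv2, a transcription factor gene that drives endothelial and blood fate, had hypoxia signals of 9.10, 9.26 and 8.19 without and 8.12, 8.26 and 6.2 with the inhibitor. In normoxia Etv2 had 7.40, 7.67 and 5.29 without and 7.20, 7.27 and 5.71 with it. The interaction of -1.26 (SE 0.98, 95% interval -3.41 to 0.88) was negative in 3 of 3 replicates and far from the threshold, and it was -0.60 without hypoxia with inhibitor 3. Pecam1 (-0.13), Cdh5 (0.04), the venous receptor gene Ephb4 (0.03) and the venous regulator gene Nr2f2 (0.34) had intervals on both sides of 0. Over 34 measured endothelial genes (of 35 on the array) the median was -0.08, from 0.16, 0.23 and -0.60 in the replicates, and 0.05 without hypoxia with inhibitor 3. Of 14 measured venous genes 6 were negative (median 0.04), and of 23 tip cell genes 17 (median -0.05). Without that array the medians were 0.19 and 0.02, with 4 and 10 negative.

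Some raised genes had the larger rise with the inhibitor, ranked here by size after the values were seen. Egr1, an immediate early transcription factor gene, had 10.85, 10.97 and 11.02 in normoxia and 11.44, 11.45 and 10.73 in hypoxia. With the inhibitor Egr1 had 11.2, 11.24 and 10.88 in normoxia and 12.49, 12.49 and 11.82 in hypoxia. Hypoxia with the inhibitor lay above all other arrays. The changes were 0.26 and 1.16, the latter past the test (limma adjusted p = 0.0412), and the interaction was 0.90 (SE 0.31, 95% interval 0.21 to 1.59, unadjusted p = 0.015), positive in each replicate.

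Nfkbiz, a regulator of NF-kappa-B target genes, changed by 0.85 without and 1.44 with the inhibitor (interaction 0.58, unadjusted p = 0.0344), with 0.35, 0.15 and 1.25 in the replicates. Rgcc, a cell cycle regulator induced by complement, changed by 0.42 and 1.02 (interaction 0.59, unadjusted p = 0.0383), and was detected on 1 of 3 normoxia arrays in each state. The granzyme gene Gzmd, one of several similar genes, changed by 1.07 and 1.69 (0.62, unadjusted p = 0.0364). Tuba8, a tubulin gene, was not well above background on any array of 3 groups and was detected on 3 of 3 arrays of hypoxia with the inhibitor, at 5.70, 5.79 and 5.90, at least 1.55-fold above normoxia with the inhibitor. Lcn2, Ptx3 and Nppb, by contrast, had interactions of 0.62 to 0.73 with replicate 3 values of 2.19 to 2.48 and replicate 1 and 2 values of -0.57 to 0.27.

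The raised genes with the smaller rise and an unadjusted p under 0.05 included Apcdd1 and Tspan33. Apcdd1, an inhibitor of Wnt signalling, had 5.88, 5.79 and 6.33 in normoxia and 7.27, 7.57 and 7.01 in hypoxia. With the inhibitor Apcdd1 had 6.40, 6.05 and 6.85 in normoxia and 7.09, 6.75 and 6.52 in hypoxia, where the groups overlapped. The change of 1.28 (limma adjusted p = 0.0278) stood against 0.35 (adjusted p = 0.617), and the interaction was -0.93 (SE 0.33, unadjusted p = 0.0154), with -0.70, -1.09 and -1.01 in the replicates. The tetraspanin gene Tspan33 changed by 1.46 and 0.75 (interaction -0.70, unadjusted p = 0.0325). It was detected on 1 of 3 normoxia arrays in each state, so both rises were measured from near background.

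Among lowered genes the embryonic globin gene Hba-x had the smaller fall with the inhibitor. Its signals were 9.73, 9.64 and 9.81 in normoxia and 8.24, 8.60 and 7.97 in hypoxia. With the inhibitor they were 9.69, 9.38 and 9.26 in normoxia and 9.55, 9.01 and 8.35 in hypoxia, and these groups overlapped. Hba-x fell by 1.45 without the inhibitor (limma adjusted p = 0.0255) and had a change of -0.47 with it (adjusted p = 0.519). The interaction was 0.98 (SE 0.37, 95% interval 0.18 to 1.78, unadjusted p = 0.0203), with 1.35, 0.66 and 0.94 in the replicates. The embryonic beta-type globin gene Hbb-y (0.58, SE 0.53) and the adult alpha globin gene Hba-a1 (0.37, SE 0.53), which has a near-identical copy, were positive in 3 of 3 replicates as well. Alas2, the first enzyme of haem synthesis in red cells, gave 0.69, 1.49 and -0.55 around an interaction of 0.54, which was 0.90 without hypoxia with inhibitor 3. Alas2 was detected on 1 of 3 arrays of hypoxia and 2 of 3 of hypoxia with inhibitor, so part of its hypoxia signals lay at background. The anion exchanger gene Slc4a1 gave 1.04, 0.41 and 0.21. Over 20 measured haematopoietic markers (of 25 on the array) 13 were positive and 7 negative, with a median of 0.33, against 0 over all genes. Gfi1b was among the negative ones, at -0.88 to -0.22 with any 1 array left out. The median of the list was 0.40 without hypoxia with inhibitor 3 and 0.14 without replicate 3 of every group. In the replicates the median was 0.32, 0.14 and 0.18. The mean level of the list was 6.85 to 7.78 over the 12 arrays, with replicate 3 the lowest in each group.

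By sign, 149 of the 264 lowered genes had the larger fall with the inhibitor and 115 the smaller. The largest such differences were those of Hapln1, given above at -0.78, and of Hsd11b2, an enzyme that inactivates glucocorticoids. Hsd11b2 changed by -0.48 without and -0.98 with the inhibitor (interaction -0.50, SE 0.38), with 0.05, -0.91 and -0.63 in the replicates. Arhgef4, a guanine nucleotide exchange factor gene, changed by -0.47 and -0.91 (interaction -0.44, SE 0.23), with -0.29, -0.44 and -0.59. Its fall passed the test with the inhibitor (limma adjusted p = 0.034) and not without it (adjusted p = 0.264). The zinc finger gene Zfp770 changed by -0.06 without and -0.49 with the inhibitor (interaction -0.43, SE 0.14, unadjusted p = 0.01), with -0.34, -0.41 and -0.55 in the replicates.

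The genes with the smallest unadjusted p of the interaction, among those detected on every array of at least 2 groups, mostly had changes of opposite sign in the 2 states (19 of 24), few of which passed a test. Selection by the interaction favours such opposite signs, and their share over all genes was not computed. Usp12, a deubiquitinase gene, had 5.95, 6.19 and 6.22 in normoxia and 6.66, 6.68 and 6.93 in hypoxia. With the inhibitor Usp12 had 6.40, 6.59 and 6.33 in normoxia and 6.27, 6.27 and 6.19 in hypoxia. Hypoxia lay above normoxia without the inhibitor and below it with the inhibitor, and the groups did not overlap in either state. The interaction was -0.83 (SE 0.17, unadjusted p = 0.000498), with -0.84, -0.81 and -0.85 in the replicates and -0.89 to -0.75 when any 1 array was left out. A second, dimmer probe of Usp12 gave -0.36 (SE 0.26, unadjusted p = 0.198).

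The other 11 negative ones were Slc45a2 (-0.77, unadjusted p = 0.000601), Atrx (-0.71), Kcnj4 (-1.04), Stoml2 (-0.60), Hoxd4 (-0.60), Zfp770, Elmod3 (-0.66), Xpnpep2 (-0.87), Mdm1 (-0.59), Apcdd1 and Parp16 (-0.51, unadjusted p = 0.0176). All 12 were negative in 3 of 3 replicates, which selection by a small p-value favours. Slc45a2, a melanosome transporter gene, lay at 5.04 to 5.67 over the arrays, close to the lowest detected signal. Atrx, a chromatin remodeller of the X chromosome, was detected on 1 array of hypoxia with the inhibitor. Second kept probes, all dimmer, gave 0.34 for Xpnpep2 (detected on 8 arrays) and -0.19 for Elmod3 (detected on 5), and the other 2 probes of Mdm1 gave -0.38 and -0.36. Hoxd4 is a homeobox gene of the body axis, and Stoml2 encodes a mitochondrial membrane protein.

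The 12 positive ones were Ndufb11 (0.89, unadjusted p = 0.00295), Fosb (0.87, unadjusted p = 0.00343), Wdr92 (0.64), Prss42 (0.66), Zfp954 (0.61), Zfp346 (0.68), Ppp6r2 (0.56), Kdm5b (0.58), Rbm12b2 (0.54), Hr (0.73), Nsd1 (0.69) and Man2b2 (0.53, unadjusted p = 0.0147). All 12 were positive in 3 of 3 replicates. Ndufb11, a subunit of respiratory complex I, had 6.25, 6.37 and 6.16 in normoxia and 6.01, 5.99 and 5.64 in hypoxia, and with the inhibitor 5.34, 5.67 and 5.22 and 5.64, 6.15 and 5.98. It was the normoxia level with the inhibitor that stood low. Fosb, an AP-1 subunit gene of the immediate early class, was not well above background on any hypoxia array without the inhibitor and was detected on 3 of 3 with it, at 5.46, 5.93 and 5.27. Prss42 was also detected on no hypoxia array without the inhibitor. A second, dimmer probe gave -0.37 for Nsd1 (detected on 11 arrays) and 0.04 for Zfp346 (detected on 12). Kdm5b and Nsd1 encode a histone demethylase and a histone methyltransferase. Of these 24 genes, Apcdd1, Mdm1, Ppp6r2 and Usp12 passed the oxygen test without the inhibitor and Zfp770 with it (limma adjusted p = 0.0278, 0.0394, 0.0297, 0.0357 and 0.046).

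The medians of 4 further lists moved most with hypoxia with inhibitor 3. For 31 genes of the ATF4 and unfolded protein response the median interaction was 0.24, from -0.12, -0.16 and 1.09 in replicates 1, 2 and 3, and -0.10 without that array. Atf3, a stress-induced transcription factor gene, gave 8.81, 8.94 and 10.2 in hypoxia with the inhibitor against 8.70, 8.76 and 8.86 in hypoxia. The pseudokinase gene Trib3 gave 6.02, 5.85 and 8.09 against 5.27, 5.55 and 5.45. Without that array the interaction went from 0.55 to 0.11 for Atf3 and from 0.99 to 0.28 for Trib3. For 22 inflammatory genes the median was 0.20, and -0.11 without the array, and for the prostaglandin synthase gene Ptgs2 the replicate values were -0.66, 0.29 and 2.16, with an interaction of 0.07 without the array. For 16 genes of cholesterol synthesis the median was -0.22 and 0.05, with the replicate 3 median at -0.76; Fdps, farnesyl diphosphate synthase, gave -0.04, -0.16 and -1.10, and 0.02 without the array. For 19 pluripotency genes it was -0.25 and 0.26, where the mean level of the list was 6.86 on hypoxia with inhibitor 3, 6.99 on normoxia with inhibitor 3 and 8.01 to 9.11 on the others. Klf4, a pluripotency factor gene that endothelial cells also use, was positive in each replicate (0.91, SE 0.54, with 0.84, 0.45 and 1.45), and 0.55 without the array.

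**Figure D4:**
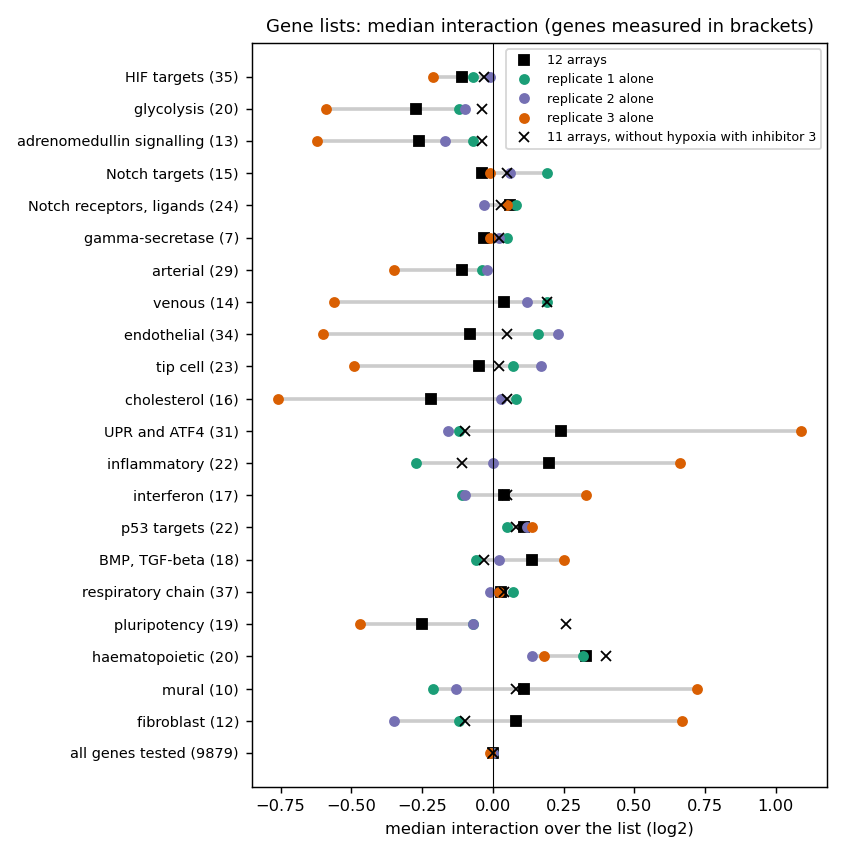
Median interaction (log2, horizontal axis) of 21 gene lists and of all 9879 genes, with the number of measured genes in brackets. Squares use 12 arrays, coloured points 1 replicate number each, and crosses the 11 arrays left without hypoxia with inhibitor 3. For glycolysis, cholesterol, inflammatory and unfolded protein response genes the replicate 3 point lies apart and the cross lies within 0.11 of 0; for haematopoietic markers all 5 symbols lie above 0.

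The remaining lists had medians near 0 and no member past the test. The median was 0.03 over 37 respiratory chain genes (SE of a member 0.16 at the median), 0.11 over 22 p53 targets, 0.04 over 17 interferon response genes and 0.14 over 18 genes of BMP and TGF-beta response. It was -0.14 over 20 S phase and -0.04 over 16 G2 and M phase genes, and -0.01 over 15 matrix genes. Among markers of other cells it was 0.11 for 10 mural, 0.08 for 12 fibroblast, 0.12 for 6 cardiac, -0.02 for 5 endoderm and 0.06 for 8 neural genes. In replicates 1, 2 and 3 the mural median was -0.21, -0.13 and 0.72 and the fibroblast median -0.12, -0.35 and 0.67. Without replicate 3 of every group these 2 medians were -0.18 and -0.19. Without hypoxia with inhibitor 3 the median was -0.03 for BMP and TGF-beta response, -0.03 for S phase, -0.10 for fibroblast and 0.01 for neural genes. Rsad2, an interferon-induced antiviral gene, gave 0.65, 0.80 and 0.28 in the replicates (interaction 0.58, SE 0.35), and 0.94 without that array. The p53 targets fell in part in hypoxia (6 of 22 in the averaged effect, where 2.67% of all genes did), with medians of -0.34 without and -0.25 with the inhibitor.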

How the data were processed

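The data are 12 Illumina bead arrays in 4 groups of 3, with a sample on each. Per the file headers, the deposited non-normalized table gives each probe a linear intensity with its detection p-value; 23.3% of the intensities are below 0, so the authors had subtracted background. The submitters' processing notes name BeadStudio, without a version. The authors' processed intensity table, floored at 20, was used as an alternative; the sources used here do not give its scaling method.

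With limma (version 3.58.1, R 4.3.3) the detection p-values served to fit a normal-exponential background model, and after adding 16 the signals were quantile normalized and put on the log2 scale. Of 25697 probes, 23978 carry 1 gene symbol, 0 several and 1719 none. The 14599 probes detected at p under 0.05 on 3 or more of 12 arrays were kept (13752 named), and the brightest kept probe, by its mean over arrays, stands for a gene. Each probe was fitted as 4 group means (residual degrees of freedom 8), variances were moderated, tests were two-sided, and p-values were adjusted by Benjamini-Hochberg over all kept probes. The contrasts were the interaction, the oxygen effect averaged over inhibitor states, and hypoxia minus normoxia in each state. The inhibitor effect averaged over oxygen levels was added after the data were seen. Where no array of a group detected a gene, its fold is against the lowest detected signal, as "at least". The test was checked on simulated data.

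The genes named are those with called interactions, filled to 12 a direction by the smallest p among genes detected on every array of at least 2 groups. To these come the 12 largest called rises and falls of the averaged oxygen effect, 31 panel genes (HIF, Notch, adrenomedullin and arterial biology), and up to 4 members of each of 28 lists by the smallest interaction p. The genes with the largest difference between states among those called for oxygen, Dppa5a, Hba-a1 and Hbb-y included, were chosen after their values were seen. The members and lists were chosen with earlier results of these data known.

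Precision is limited by the number of arrays and by signal over background, since arrays carry no depth. Pairing was checked through correlations, between groups, of what same-numbered arrays deviate by from the group mean. Of 18 such correlations 14 exceeded 0.1 (range 0.03 to 0.64). Hypoxia against hypoxia with inhibitor gave 0.03 to 0.08. Same-numbered arrays thus shared part of their deviation in most pairs of groups, and the main fit makes no allowance for it. A fit with the replicate block was run as an alternative. It called 1292 probes for the averaged oxygen effect against 774, and 0 for the averaged inhibitor effect against 1. The interaction was called for 0 probes in both fits. Values of 1 replicate number are given as a description. Promoters are from RefSeq (GRCm38.p6), matched by gene ID for 8033 of 9879 genes. Alternatives were other background, normalization, filter and variance settings, array weights, the replicate block, and arrays left out. Figures used Python 3.11.15 and matplotlib 3.10.9.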

Additional observations from a re-analysis of the deposited data

Results flagged for a closer look

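In 16 named genes the change from normoxia to hypoxia had 1 sign in all 3 replicates without the inhibitor and the opposite sign in all 3 with it. For Nsd1 this includes a change of 0 at 2 decimals in replicate 3 without the inhibitor. None passed the test of the interaction itself (limma, adjusted p of 1 for each). Most were named for a small interaction p, so their opposite signs and the agreement of their replicates are partly selected. The change was positive without and negative with the inhibitor for Usp12 (interaction -0.83), Slc45a2 (-0.77), Atrx (-0.71), Kdr (-0.69), Elmod3 (-0.66), Stoml2 (-0.60) and Edem1 (-0.42), an endoplasmic reticulum degradation factor gene. It was negative without and positive with the inhibitor for Klf4 (0.91), Ndufb11 (0.89), Fosb (0.87), Nsd1 (0.69), Zfp346 (0.68), Wdr92 (0.64), Kdm5b (0.58), Rbm12b2 (0.54) and Tyms (0.27), the thymidylate synthase gene. Groups of 3 arrays are too small for a test of single outlying arrays. Other kept probes of these genes gave -0.36 for Usp12, -0.19 for Elmod3, -0.37 for Nsd1 and 0.04 for Zfp346, 0.57 and 0.42 for Klf4, and 0.13, 0.20, -0.23 and -0.23 for the 4 of Tyms. Fosb was detected on no hypoxia array without the inhibitor.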

How the results depend on the processing

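The count of 0 called probes for the interaction held in every alternative except that with no background model, where 1 passed (Tuba8, 1.31, limma adjusted p = 0.0276, detected on 3 arrays). Those 3 were the arrays of hypoxia with inhibitor, so Tuba8 passed the detection filter through that group alone. The other groups were under detection, so this value is a contrast against background and is not taken as support. At an unadjusted p under 0.05 there were 142 to 627 probes under settings that kept all arrays at equal weight, 840 (5.75%) with array quality weights and 1189 (8.14%) without replicate 3 of every group, where the smallest adjusted p was 0.187. The replicate block gave 0 called and 504 at an unadjusted p under 0.05. It gave 1292 probes for the averaged oxygen effect (1290 as a random block), against 774. That count was 3042 with array weights, 2787 without replicate 3 of every group, and 401 to 1052 with any 1 array left out. The share of oxygen-called genes that were weaker with the inhibitor was 53.5%, and 47.7% with array weights, 51.2% and 51.5% with the blocks, 45.8% without replicate 3 of every group, 50.6% with unmoderated variances and 37.6% to 63.6% with 1 array left out. With array weights or 1 array left out the averaged effect and the interaction are not independent, so selection by the oxygen call can itself shift this share. Median centring moved the median interaction of all probes to 0.04 and the share among raised genes from 62.2% to 52.8%. The averaged inhibitor effect was called for 94 probes without replicate 3 of every group, 28 with array weights, 0 with the replicate block and with unmoderated variances, and 0 to 7 with 1 array left out, against 1.

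Of 172 named genes 106 kept the sign of the interaction in every setting, and the sign changed in 67 of 2369 values outside leave-one-out and 119 of 2064 within it. Changes of sign by more than 1 standard error were as follows, and their cause was not tested beyond the arrays left out. With array weights the interaction was 0.07 for Adm, 0.36 for Notch4, 0.39 for Nrarp and -0.11 for Gata6. Without replicate 3 of every group it was -0.03 for Gpnmb, -0.04 for Cryaa, 0.62 for Depp1, 0.12 for Hapln1, 0.38 for Cd55, 0.19 for Adm, 0.46 for Notch4, 0.58 for Nrarp, -0.29 for Vegfa, -0.13 for Slc2a1, 0.04 for Pfkfb3, 0 for Pmvk, -0.18 for Ptgs2, 0 for Ifi35, -0.04 for Ccn2, -0.08 for Tgfbi, -0.41 for Klf5, -0.24 for Dcn, -0.32 for Hand2, -0.19 for Gata6, 0.26 for Sox7 and -0.12 for Krt14. With 1 array left out it ranged from -0.56 to 0.47 for Spon2, -0.75 to 0.25 for Slc16a3, -0.64 to 0.23 for Nrarp, -0.73 to 0.07 for Pfkl, -0.71 to 0.02 for Fdps and -0.19 to 0.58 for Dcn. List medians and the inhibitor count without replicate 3 arrays were added after the data were seen.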
